A study of Mus musculus with 3 samples.

Results

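The peroxiredoxins and the thioredoxin system were examined as the 10 genes Prdx1 to Prdx6, Txn1, Txn2, Txnrd1 and Txnrd2, taken by the gene name printed for each spot of the array. The set was chosen by the HP to control ratios of these same arrays, above all those of the 2 probes of Prdx4. The 10 genes were covered by 19 of the 41174 probes. RNA came from pools of mouse four-cell embryos on 3 Agilent arrays with 2 colours each. In the HP groups the oocytes had been held at 20 MPa of hydrostatic pressure for 60 min at 37 °C, and in the control groups oocytes had the same handling without pressure. Oocytes of both groups were then fertilised, by sperm injection (ICSI) in the wording of the labels and in vitro in that of the series title, and cultured to the four-cell stage. The HP pools held 44, 30 and 37 embryos on arrays 1, 2 and 3, and the control pools on the same arrays held 36, 33 and 24. The labels give no strain or age of the mice. Every array had Cy5 on the HP pool and Cy3 on the control, so pressure and dye cannot be told apart.

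Peroxiredoxins are thiol peroxidases. A cysteine of the enzyme reacts with hydrogen peroxide and is then reduced again, in most members by thioredoxin, which thioredoxin reductase recharges with electrons from NADPH. The family is spread over the cell: Prdx1 and Prdx2 act in the cytosol and nucleus, Prdx3 in mitochondria, Prdx4 in the endoplasmic reticulum, and Prdx5 in several compartments including mitochondria and peroxisomes, while Prdx6 uses a single catalytic cysteine and glutathione. Txn1 and the selenoenzyme Txnrd1 serve the cytosol, and Txn2 with the selenoenzyme Txnrd2 serves mitochondria. Embryos cultured outside the oviduct are exposed to reactive oxygen species, against which these enzymes are a main defence.

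The probes decide what was measured for each gene, and the sequences of Prdx3, which had the lowest mean ratio, and of Prdx4 and Txn2, whose probes disagreed, are given here as the array files list them. The probe of Prdx4 named after the RefSeq transcript is whole, and of the others a stretch of 30 bases is shown. Capitals mark AATAAA, the letters of a polyadenylation signal, searched on the strand of the probe only.
Prdx4 A_52_P313861: aaagccaagccgatttgcctccgtaaacat
Prdx4 A_51_P200819: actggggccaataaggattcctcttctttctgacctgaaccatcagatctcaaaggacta
Prdx3 A_51_P100828: gcacatagcaccagcacttaatggaagctt
Txn2 A_51_P207310: acaagtcagaccAATAAAaccaggtttgca
Txn2 A_52_P590205: gcttgaaaaggaaaccagaagccgaacaag
Both Prdx4 probes lie on the minus strand of chromosome X (mm7, the build of the array design). A_52_P313861 was placed at 150138058 to 150138117 and is named after a cDNA clone of a B cell line. A_51_P200819 was placed at 150131445 to 150131504, so the clone's probe lies 6553 bases nearer the start of the gene. The longest run of letters that the 2 probes share is 5 bases, and their G+C content is 36.7% and 45.0%. Both Txn2 probes lie on the minus strand of chromosome 15, with only 55 bases between them: A_52_P590205 was placed at 77998194 to 77998253 and A_51_P207310 at 77997999 to 77998138. Of the 19 probes, 1 held AATAAA (A_51_P207310 of Txn2), against 4.78% of all 41174 probes. No member's probe shared a run of 20 bases with another probe of the array. Which exon or untranslated region a probe lies in was not analysed here.

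Of the 19 probes, 11 could be tested, as could 8590 probes of the whole array, since the scanner software had called one and the same channel well above background on 2 or 3 arrays. They stood for 9 of the 10 genes. The single probe of Prdx5 (chromosome 19, 6726975 to 6727409) did not pass, and neither did 2 of 3 probes of Prdx2, 3 of 4 of Prdx6 and 2 of 3 of Txnrd2. None of these 8 probes was well above background in any of the 6 pools. Their normalized signals lay between 72.9 and 83.4 in every pool, and their mean log2 ratios between −0.03 and 0.02. An offset of 50 is contained in all signals given here, so ratios of probes near this floor are drawn towards 0. No spot of a member was marked as an outlier and no spot of the arrays was saturated.

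Across the 3 arrays, the members did not move as one group. Log2 ratios are HP over control, and each mean is over n = 3 arrays with its SD. The 11 tested probes had a median of −0.05, beside −0.02 for all 8590. Of the 11, 8 had a mean below 0, as had 52.2% of all tested probes. All 3 arrays were above 0 for 3 member probes (22.6% of all tested) and below 0 for 5 (24.9%). Since these ratios served to choose the members, they are a description and carry no test. In the limma fit 0 of 8590 probes (0%) passed the adjusted threshold of 0.05, where the smallest adjusted p was 0.177, and no member is called changed. At an unadjusted p under 0.05 there were 1528 probes (17.8%), 4 of them members: Prdx3, Txn1, A_52_P313861 of Prdx4 and A_51_P207310 of Txn2.

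**Figure D1:**
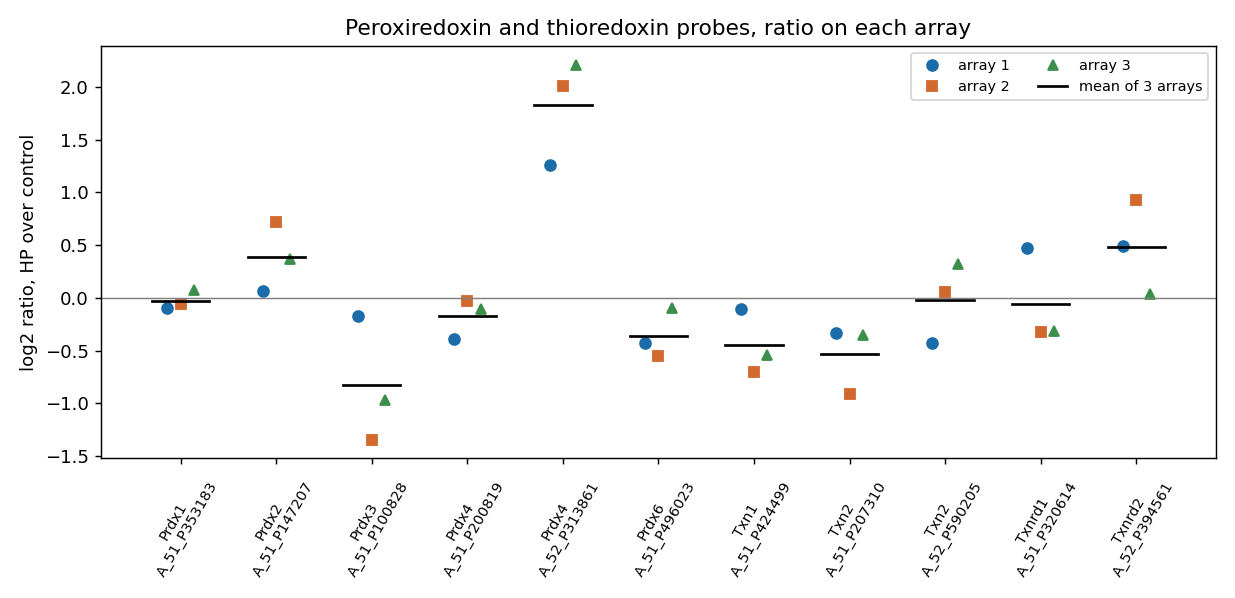
Log2 ratio of HP over control for the 11 tested probes on each of 3 arrays (points, 1 marker per array) with the mean (line). A_52_P313861 of Prdx4 lies above 1 on every array, while A_51_P200819 of the same gene lies below 0 on every array.

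Prdx4, the peroxidase that couples peroxide to disulfide formation in the endoplasmic reticulum, gave the largest and the most divided values. With A_52_P313861 the HP pools of arrays 1, 2 and 3 had normalized signals of 222, 645 and 592, and the control pools 92.7, 160 and 128. The lowest HP pool was thus above the highest control pool, and the HP pools of arrays 2 and 3 were well above that of array 1. Signals of HP pools all above those of control pools occurred in 12.9% of tested probes. The log2 ratios were 1.26, 2.01 and 2.21, with a mean of 1.83 ± 0.50 (SD, n = 3) or 3.55-fold higher in HP. This was the second highest mean of the 8590 tested probes, and 1 of 11 probes (0.128% of those tested) that were at least 2-fold higher on every array. The set was chosen with these values known, so the rank is a description.

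The other Prdx4 probe showed none of this. With A_51_P200819 the HP pools had signals of 94.0, 90.9 and 96.9 and the control pools 123, 92.7 and 104, so the groups overlapped and both lay close to the background. The HP channel of array 3 was not well above background. The log2 ratios were −0.39, −0.03 and −0.11, with a mean of −0.18 ± 0.19 (SD, n = 3). The 2 probes were 2.0 apart in mean log2 ratio. Of 1149 genes with several tested probes, the median distance between the highest and the lowest probe was 0.30, and 2 genes (0.174%), Prdx4 among them, reached a distance as large as that of Prdx4. The set was chosen with the values of these 2 probes known, so this rank is a description and no test. Since the 2 probes differ, the level of the Prdx4 transcript as a whole cannot be given one direction from these arrays.

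**Figure D2:**
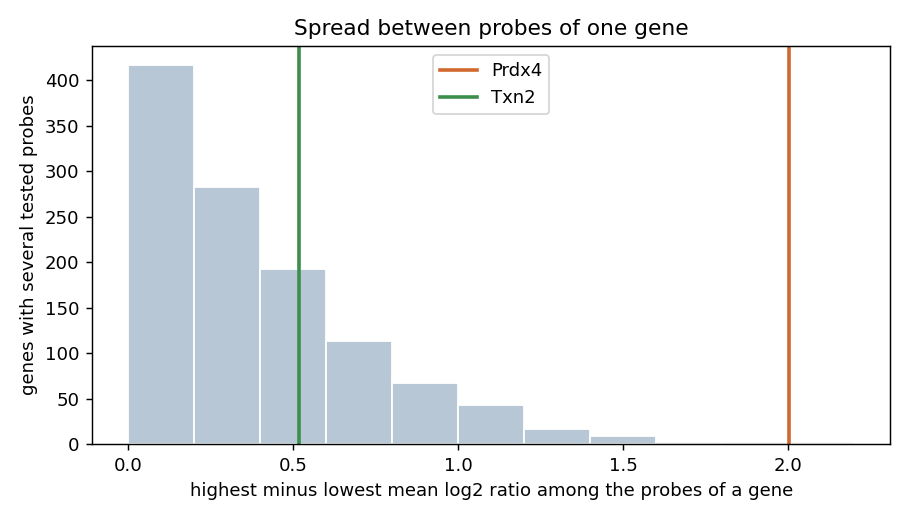
Histogram of the distance between the highest and the lowest mean log2 ratio among the tested probes of a gene, for 1149 genes with several tested probes (bins of 0.2). Vertical lines mark Txn2 at 0.52, inside the bulk of the genes, and Prdx4 at 2.0, in a bin far to the right of the bulk. The set was chosen with the Prdx4 values known.

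By distance over the 3 log2 ratios, the 5 named genes closest to A_52_P313861 were Ankrd6 (0.43), Oog3 (0.48), Usp28 (0.56), Oog1 (0.61) and Atf7ip2 (0.77). Likeness over 3 arrays is a weak measure. Oog1 belongs to the oocyte markers, of which 5 of 8 listed were tested and none passed adjustment (limma, 0% of 8590), with 3 at an unadjusted p under 0.05 (17.8% of all tested probes). All 5 had a mean above 0 under loess, where 52.2% of all tested probes were below 0, from 0.02 for Zp3, a protein of the egg coat, to 1.48 for Oog1. Bmp15 and Zp3 took both signs over the arrays, and under median centring Bmp15 (−0.07), Zp3 (−0.28) and Btg4 (−0.0048) were below 0, though above the median of −0.37. Their summed signal, in which bright probes weigh most, was 12308 to 23760 in the HP pools and 5953 to 7888 in the control pools. The sum does not show that each of the 5 markers was higher. The probes of Zp2 and Nlrp5 were not well above background on 2 arrays in either channel. The part of this difference in the Prdx4 value was not tested. RNA of each pool was amplified from 240 pg, and the ratios were scaled within arrays. The ratios therefore compare shares of the RNA, and neither the number of cells nor the RNA per cell can be read from them.

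The mitochondrial peroxidase Prdx3 had the lowest mean of the family. Its probe A_51_P100828 (chromosome 19, 60786953 to 60787012, minus strand) gave signals of 934, 354 and 438 in the HP pools and 1048, 898 and 858 in the control pools. The control pools were close to each other, whereas the HP pools of arrays 2 and 3 were below every control pool and that of array 1 lay among them. Log2 ratios on arrays 1, 2 and 3 were −0.17, −1.34 and −0.97, with a mean of −0.83 ± 0.60 (SD, n = 3), or 1.77-fold lower in HP. The ratio was below 0 on all 3 arrays, and the size of the mean was set by arrays 2 and 3.

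The cytosolic peroxidases Prdx1 and Prdx2 were both measured by dim probes. The Prdx1 probe A_51_P353183, whose 60 bases were placed over 771 bases of chromosome 4 (116069412 to 116070182), had signals of 101, 96.4 and 87.4 in HP and 108, 100.1 and 83.1 in control pools. Its log2 ratios of −0.10, −0.05 and 0.07 had a mean of −0.03 ± 0.09 (SD, n = 3), and the groups overlapped. The control channel of array 3 was not well above background. Prdx2 was measured by A_51_P147207 (chromosome 8, 83560279 to 83560338), which is printed 10 times on each array and so shows the error between spots. Its signals were 113, 160 and 128 in HP and 108, 96.7 and 99.0 in control pools, so that the groups did not overlap. HP pools all above control pools were found for 12.9% of tested probes. The log2 ratios were 0.07, 0.72 and 0.37, with a mean of 0.39 ± 0.33 (SD, n = 3). Within an array the 10 spots had an SD of 0.05, 0.07 and 0.05, which covers the error of spots within 1 hybridisation and not that between pools. The other 2 probes of Prdx2 were not well above background and say nothing on this ratio.

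Prdx6, which also has a phospholipase activity, was measured by A_51_P496023 (chromosome 1, 161203565 to 161203624). The HP pools had signals of 98.4, 97.4 and 91.6 and the control pools 132, 143 and 97.9, and the HP channel of array 3 was not well above background. Only the lowest control pool came between the HP values. Log2 ratios on arrays 1, 2 and 3 were −0.43, −0.55 and −0.10, with a mean of −0.36 ± 0.24 (SD, n = 3). For this dim probe the starting values mattered: the scanner software's own ratios, which contain no offset, had a mean of −1.41.

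Txn1, the thioredoxin of the cytosol, was lower in all HP pools than in any control pool. The probe A_51_P424499 (chromosome 4, 57985194 to 57985253, minus strand) gave 313, 233 and 229 in HP and 337, 380 and 333 in control pools. The log2 ratios were −0.11, −0.71 and −0.54, with a mean of −0.45 ± 0.31 (SD, n = 3), or 1.37-fold lower. As with Prdx3, array 1 showed the smallest difference. Signals of HP pools all below those of control pools occurred in 12.8% of tested probes.

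The mitochondrial thioredoxin Txn2 gave different values with its 2 neighbouring probes. A_51_P207310, which holds AATAAA, had signals of 175, 180 and 166 in HP and 221, 340 and 213 in control pools, without overlap. HP pools all below control pools were found for 12.8% of tested probes. The log2 ratios of A_51_P207310 were −0.33, −0.91 and −0.36, with a mean of −0.53 ± 0.33 (SD, n = 3), or 1.45-fold lower. A_52_P590205 had 174, 220.2 and 177 in HP and 234, 212 and 142 in control pools, with overlap, and ratios of −0.43, 0.05 and 0.32 around a mean of −0.02 ± 0.38 (SD, n = 3). On array 1 both probes were below 0, and on arrays 2 and 3 only A_51_P207310 was. A distance of at least the 0.52 between their means was found in 28.9% of the 1149 genes with several tested probes.

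**Figure D3:**
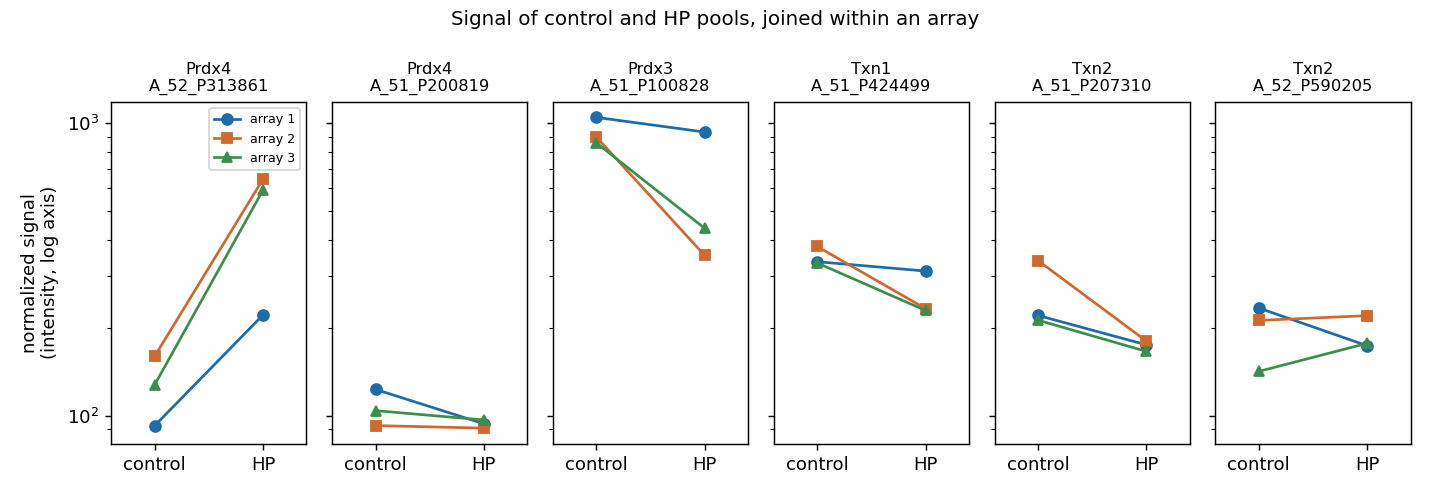
Normalized signal (intensity, log axis) of the control and the HP pool, joined within each array, for 6 probes of Prdx4, Prdx3, Txn1 and Txn2. The HP pools lie above all control pools for A_52_P313861 of Prdx4 (222 to 645 against 92.7 to 160) and below them for Txn1 and for A_51_P207310 of Txn2.

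Neither thioredoxin reductase had groups that separated. Txnrd1 was measured by A_51_P320614 (chromosome 10, 82438991 to 82439050), with signals of 128, 89.2 and 109 in HP and 91.9, 112 and 135 in control pools. The log2 ratio was 0.48 on array 1 and −0.32 and −0.31 on arrays 2 and 3, with a mean of −0.05 ± 0.46 (SD, n = 3), and the HP channel of array 3 was not well above background. For Txnrd2 the only probe above background was A_52_P394561 (chromosome 16, 17987457 to 17987516), named after a cDNA clone of small intestine and placed 18244 bases before the nearest RefSeq probe of the gene. Its signals were 273, 593 and 390 in HP and 195, 311 and 380.0 in control pools. Log2 ratios on arrays 1, 2 and 3 were 0.49, 0.93 and 0.04, with a mean of 0.49 ± 0.45 (SD, n = 3). The RefSeq probes of Txnrd2 were not well above background on any array, and Txnrd2 was read through the clone's probe alone.

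The scaling moved all probes, and the members with them. Loess removes the trend of the ratio with intensity, whereas median centring leaves it and moves the median of all tested probes to −0.37. Under median centring Txnrd2 was at −0.26 and Prdx2 at 0.06, both above that median, while Prdx3 was at −1.68, Txn1 at −1.16, A_51_P207310 of Txn2 at −1.16 and A_52_P313861 of Prdx4 still at 1.17. This Prdx4 probe then was the only 1 of 11 member probes called by limma. Of all 8590 tested probes 1140 were called, 1135 of them lower and 5 higher in HP. With both directions together, the share of members called was not above that of all tested probes. The called member was among the 5 higher probes, and the set was chosen with its ratios known, so this is a description. With the scanner software's own ratios A_52_P313861 was at 2.96 and A_51_P200819 at −0.81, so the means of the 2 probes of Prdx4 parted further. On arrays 1, 2 and 3 A_51_P200819 was at −1.24, −0.03 and −1.15. Prdx2 was then at 1.16. Txnrd1 was at −0.54, a mean of opposite signs (1.65, −1.44 and −1.83 on arrays 1, 2 and 3). Prdx1 was at 0.37, which came from array 3 (1.32) and not from arrays 1 and 2 (−0.17 and −0.03). On array 3 the control channel of Prdx1 was not well above background, nor were the HP channels of Txnrd1 and A_51_P200819. Relative to the median of all tested probes, Prdx3, Prdx6, Txn1 and A_51_P207310 of Txn2 were lower, and A_52_P313861 of Prdx4, Prdx2 and Txnrd2 higher, under each of these 3 scalings.

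**Figure D4:**
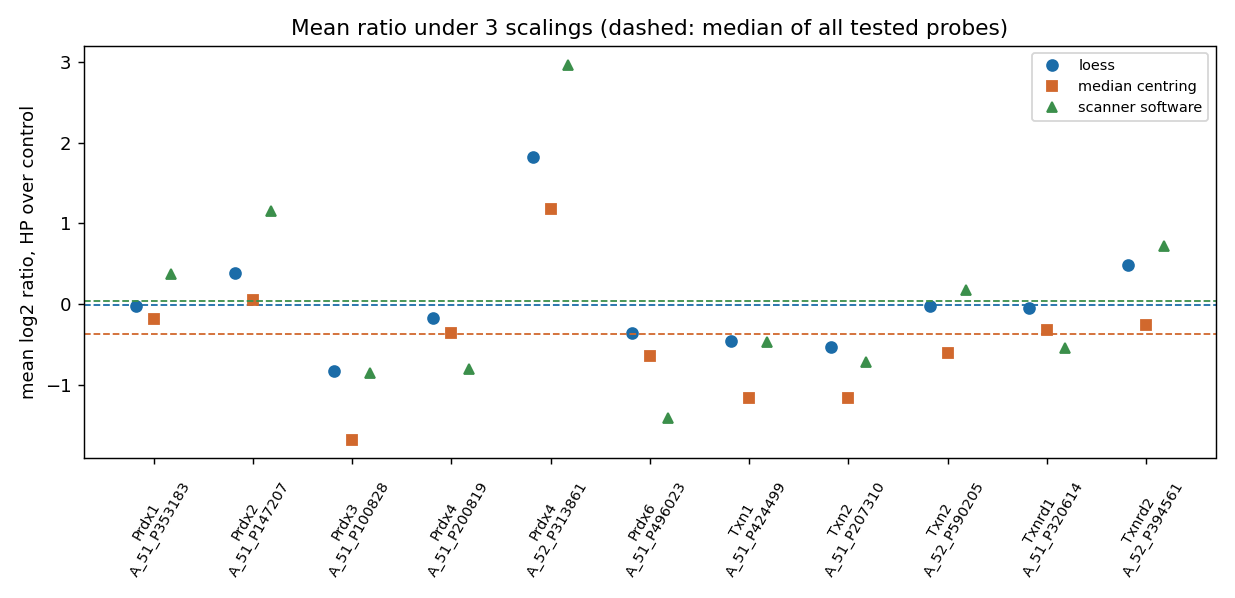
Mean log2 ratio of HP over control over 3 arrays for the 11 tested probes under loess, median centring and the scanner software's own ratio, with dashed lines at the median of all tested probes under each. A_52_P313861 of Prdx4 runs from 1.17 to 2.96 and stays above 0, and Txnrd2 falls below 0 but not below the median under median centring.

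The other genes of the pathway were taken from a list of 68 that act with thioredoxins, in oxidative folding of the endoplasmic reticulum, in selenoprotein synthesis or in regulation by Nrf2, the transcription factor of the antioxidant response. Of these 36 were tested, 18 higher and 18 lower in HP, with a median of −0.00, beside −0.02 for all tested probes. None passed adjustment over all probes (limma, 0% of 8590), and at an unadjusted p under 0.05 there were 3 higher (7.01% of all tested probes) and 4 lower (10.8%). Among 21 thioredoxin partners Sesn1, a sestrin linked to the control of peroxide and growth, was at 1.22 ± 0.44 (SD, n = 3) and Glrx5, a mitochondrial glutaredoxin for iron-sulfur clusters, at 0.88 ± 0.37. Txnl4b, a thioredoxin-like protein of the spliceosome, was at −0.50 ± 0.21. Prdx4 works in the oxidative folding pathway, whose 7 tested genes had means between −0.46 and 0.08, with the sulfhydryl oxidase Qsox2 at 0.06 ± 0.05. Of 8 genes of selenoprotein synthesis, on which both reductases depend, 2 were tested, and Sephs2, which makes the selenium donor, was at 0.12 ± 0.09. In the Nrf2 list the repressor Bach1 was at −0.63 ± 0.21, Gclc, the catalytic subunit of the rate-limiting enzyme of glutathione synthesis, at −0.45 ± 0.31, and the partner Mafg at 0.19 ± 0.12. Bach1 passed the filter through the control channel only, and Mafg through the HP channel only. The filter thus favoured the sign that each of these 2 genes showed, and their ratios carry no weight as support. Among the 32 genes that did not pass the filter were Txnip, which binds and inhibits thioredoxin, Srxn1, which repairs overoxidised peroxiredoxins, and the Nrf2 targets Nqo1 and Hmox1.

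**Figure D5:**
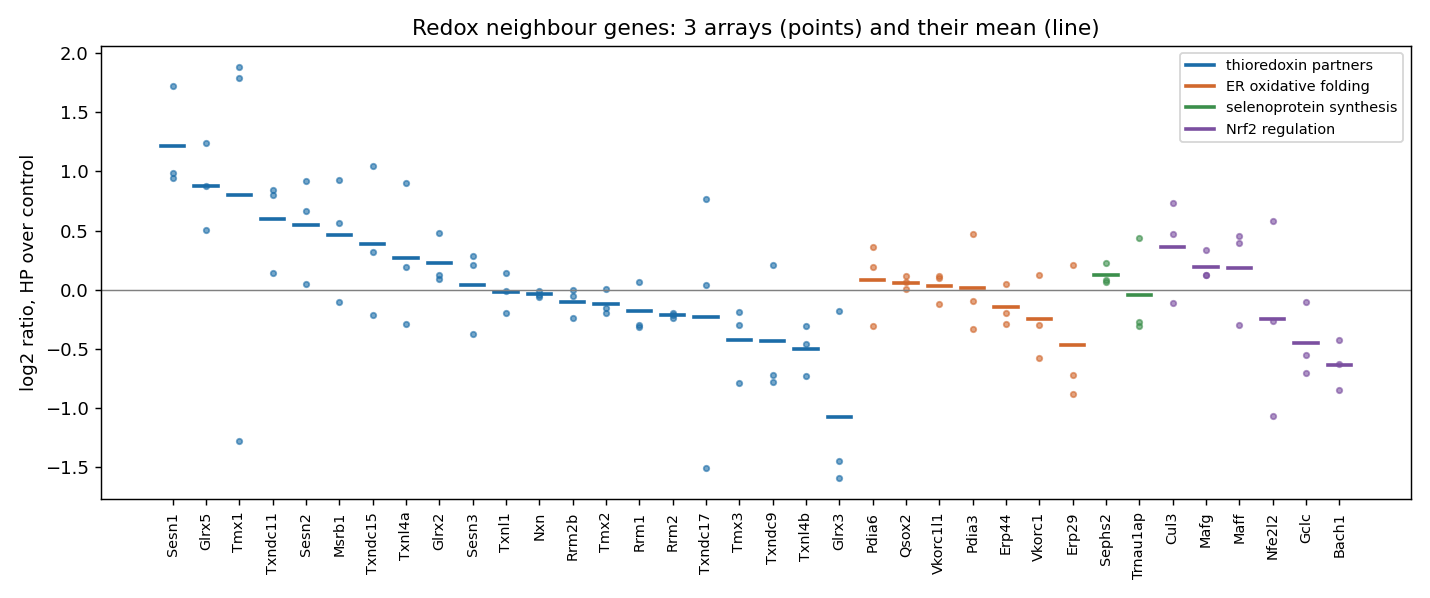
Log2 ratio of HP over control for the 36 tested genes of the redox neighbour list, by sublist (colour), as 3 arrays (points) and their mean (line). Means run from −1.07 to 1.22, and the means of the 7 genes of oxidative folding lie within −0.46 and 0.08.

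Promoters of the members were searched for the core of the antioxidant response element, TGACNNNGC, on both strands of the 300 bases that RefSeq (GRCm38.p6) gives around each start site, since Prdx1 and Txnrd1 are known Nrf2 targets. Of 10 genes 9 were found, with 11 promoters. A match was present in 2 of the 11, against 12.4% of 32851 promoters. The 30 bases around each match are shown with the matching letters, read on the opposite strand, in capitals.
Prdx1, chr4:116685456-116685485, plus strand: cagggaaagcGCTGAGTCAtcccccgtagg
Txnrd1, chr10:82859104-82859133, plus strand: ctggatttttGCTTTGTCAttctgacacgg
The Prdx1 match starts 133 bases before the start site and also holds the AP-1 letters TGANTCA, and the Txnrd1 match starts 92 bases before the second of 3 start sites. The promoters of Prdx2, Prdx3, Prdx4, Prdx5, Txn1, Txn2 and Txnrd2 held no such letters in this window. Prdx1 and Txnrd1, which held them, had mean log2 ratios of −0.03 ± 0.09 and −0.05 ± 0.46 (SD, n = 3). Whether these letters bear on the ratios was not tested.

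Over the whole series, the HP channel had 17.5% to 19.9% of its spots well above background and the control channel 18.5% to 23.2%. Across tested probes, which are not independent replicates, the ratios of arrays 2 and 3 correlated at r = 0.65, against 0.22 for array 1 with either. Of 8 embryo markers 5 were tested, among them Tead4, Sall4 and Dppa3, while Pou5f1, Sox2 and Nanog were not well above background. None of 10 cumulus cell markers was well above background on 2 arrays in either channel, and of 6 sperm markers 1 was (Prm1). Spread between the 3 pairs of pools, which may be technical, is all that the p-values measure, and the number of arrays limits the precision.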

How the data were processed

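Members, lists and alternatives were chosen with earlier results of these data known. Per the labels, RNA of each pool was amplified from 240 pg and coupled to Cy5 (HP) or Cy3 (control). Agilent Feature Extraction 9.5.1.1 made the files, per the submitters' processing notes. The deposited signals, a mean per spot and a median of its surround, are scanner intensity. Log ratios, also deposited, are log10 of Cy5 over Cy3 after background subtraction and dye normalization, per the file headers. The series table repeats it to within 5e-10, with a median of 0 on each array.

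Intensities were background-corrected with limma 3.58.1 (normexp, offset 50) in R 4.3.3 and normalized by loess within each array, with control spots at weight 0. Outlier spots were left out, spots of a probe averaged, and signals per pool taken after Aquantile scaling. An intercept was fitted to log2 ratios with limma and empirical Bayes moderation, with Benjamini-Hochberg adjustment over 8590 probes and a threshold of 0.05. A listed gene was represented by its brightest tested probe. Symbols of listed genes were matched to RefSeq (GRCm38.p6), through accessions (22951 probes), symbols (6659) or synonyms (3109), and 8455 names stayed as listed. The steps were tested on simulated data.

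Named were all member probes, for each neighbour list up to 3 tested genes with the smallest p and 1 sign on all arrays, and the 5 genes closest to the higher Prdx4 probe (numbered, clone and Rik names passed over). Alternatives were an offset of 0 or no background subtraction, centring on the median, the scanner's ratios, the series table, no filter, a filter on both channels, removal of a trend on base composition, separate channels without the replicate block, replicates 2 and 3 as 1, leaving out each replicate, and the mean over probes of a gene.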

Additional observations from a re-analysis of the deposited data

How the results depend on the processing

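With median centring in place of loess, limma passed 1140 of 8590 probes at an adjusted p of 0.05. It passed 1 of 11 member probes (A_52_P313861 of Prdx4). Of the redox neighbour list it passed 6 of 36 tested genes (Bach1, Erp29, Rrm2, Sesn3, Txnl1 and Txnl4b). Bach1 had passed the filter through the control channel only. With loess each of these 3 counts was 0. Under the other settings, without the replicate block and without each replicate included, all 3 counts stayed at 0. Where these settings tested 8590 probes, 798 to 2131 had an unadjusted limma p under 0.05. There were 1528 with all 3 arrays, 2131 without replicate 1, 798 without replicate 2 and 868 without replicate 3. With no filter there were 2585 of 41174 probes, and with the filter on both channels 1139 of 4986. Pools of an array are paired by the hybridisation itself. Under every setting run, Prdx3 (−1.68 to −0.57), Txn1 (−1.16 to −0.32), A_51_P207310 of Txn2 (−1.16 to −0.34), Prdx6 and A_51_P200819 of Prdx4 stayed below 0, and A_52_P313861 of Prdx4 (1.17 to 2.96) and Prdx2 (0.06 to 1.16) above. Prdx1, Txnrd1 and A_52_P590205 of Txn2 took both signs, and Txnrd2 was below 0 with median centring only, where it stayed above the median of all tested probes (−0.26 against −0.37). Signal over background limits Prdx1, Prdx2, Prdx6, Txnrd1 and A_51_P200819, all near the floor set by the offset.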

Other observations

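Values chosen after they were seen: Tmx1, a transmembrane thioredoxin of the endoplasmic reticulum, had log2 ratios of −1.28, 1.79 and 1.89 on arrays 1, 2 and 3 (mean 0.80 ± 1.80, SD, n = 3), so that array 1 and the other arrays lay on opposite sides. Glrx3, a glutaredoxin of the cytosol with a thioredoxin-like domain, was the lowest of the redox neighbour genes. Its brighter probe had a mean of −1.07 ± 0.78 (SD, n = 3), with −0.18, −1.45 and −1.59 on the 3 arrays, and its other tested probe was at −1.05, so that both probes of this gene lay close together, unlike those of Prdx4.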
